A study of Mus musculus with 33 samples.

Results

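The Period genes (Per1, Per2, Per3) and the cryptochrome genes (Cry1, Cry2) were followed through hair growth in mouse dorsal skin. Members were the 12 probe sets of the array whose single gene symbol in the platform annotation is one of these genes, among 45037 probe sets in all. The 5 genes stand among 18193 that carry a probe set with a single symbol. Each gene is described by its brightest probe set, chosen by the mean log2 signal over all 33 arrays, and all 5 of these passed the filter on low values, as did 11 of the 12 probe sets. To pass, a signal had to exceed its own array's median on 3 or more arrays. It passed 26988 probe sets of the whole array.

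All 33 arrays held RNA of the upper back skin of wild-type C57BL/6 mice, each array from a separate mouse. The natural second hair cycle, which runs in synchrony over the back, was sampled at P23 (2 arrays) and P25 (2), both early anagen, at P27 (3, mid anagen), P29 (3, late anagen), P34 (1), P37 (3) and P39 (3), both early catagen, P41 (3, mid catagen) and P44 (3, telogen), where P is the postnatal day. Anagen is growth of the follicle, catagen its regression and telogen its rest. A second cycle was started in older mice, past P50 by the labels, by pulling out the resting hair with a wax and rosin mixture. Days after this depilation are written D3 for early anagen, D5 for mid anagen, D8 and D12 for late and D17 for the onset of catagen, with 2 arrays on each day. Mice of the natural cycle were of both sexes and all depilated mice were female, so age and the injury of waxing differ together between the cycles and cannot be told apart. Sex differs in part and was also fitted as a covariate. Phases follow the description of the series, since the labels of P41, P44 and D5 to D17 carry the words early anagen. No resting, undepilated skin of the older mice was analysed here, and P34 had a single array and enters no main test. The mice were killed in an afternoon window of the light period. The labels do not give the hour of each mouse, and its part in any of the differences below was not tested.

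The mammalian circadian clock is a loop of transcription and repression. CLOCK (or its relative NPAS2) and BMAL1, the product of Arntl, bind E-box sequences and switch on the Period and cryptochrome genes, whose proteins pair, enter the nucleus and shut off their own activators until they are degraded. Side loops of the REV-ERB repressors (Nr1d1, Nr1d2), the ROR activators and the PAR bZIP factors (Dbp, Tef, Hlf, which bind D-boxes) shape the timing, and Per1 and Per2 also answer directly to glucocorticoid hormone. In skin the loop runs in keratinocytes, fibroblasts and follicle cells, and each transcript rises and falls within the day.

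Promoter sequence of these genes is shown because the genes differ in which clock motif lies near their start. The stretches below are the 250 bases upstream of an annotated start in RefSeq (build GRCm38.p6), written 5′ to 3′ on the strand of the gene. Capitals mark matches on either strand to the E-box CACGTG, the E-prime box CACGTT, the D-box TTATGTAA or the ROR element AGGTCA. The CRE TGACGTCA was searched as well. No motif match overlapped another in these windows. Per1 is shown from chr11:69098699-69098948 on the plus strand, Per3 from chr4:151044666-151044915 on the minus strand, Cry1 from chr10:85185055-85185304 on the minus strand and Cry2 from chr2:92434070-92434319 on the minus strand.
Per1: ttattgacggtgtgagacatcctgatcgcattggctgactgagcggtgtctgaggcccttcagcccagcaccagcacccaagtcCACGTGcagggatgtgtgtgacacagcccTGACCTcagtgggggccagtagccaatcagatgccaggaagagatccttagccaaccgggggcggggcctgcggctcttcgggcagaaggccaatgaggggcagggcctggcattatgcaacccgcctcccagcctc
Per3: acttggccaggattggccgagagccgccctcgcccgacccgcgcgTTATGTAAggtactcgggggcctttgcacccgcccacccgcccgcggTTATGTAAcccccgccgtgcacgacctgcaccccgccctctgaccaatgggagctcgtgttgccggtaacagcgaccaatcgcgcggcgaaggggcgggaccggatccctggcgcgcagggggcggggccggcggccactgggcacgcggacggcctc
Cry1: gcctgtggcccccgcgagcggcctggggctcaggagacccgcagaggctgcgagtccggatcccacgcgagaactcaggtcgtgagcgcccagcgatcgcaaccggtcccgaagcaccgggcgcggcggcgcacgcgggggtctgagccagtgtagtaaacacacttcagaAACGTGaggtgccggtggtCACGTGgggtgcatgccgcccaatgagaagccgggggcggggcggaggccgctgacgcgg
Cry2: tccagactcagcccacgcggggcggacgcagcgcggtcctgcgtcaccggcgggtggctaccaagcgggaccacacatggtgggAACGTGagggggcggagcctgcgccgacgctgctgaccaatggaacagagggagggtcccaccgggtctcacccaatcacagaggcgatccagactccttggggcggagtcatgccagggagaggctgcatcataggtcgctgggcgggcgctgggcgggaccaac

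Per1 held an E-box 166 bases before its start and an inverted ROR element 137 bases before it. A second annotated start of Per1 had none of these motifs in its window. Per3 had no E-box and 2 D-boxes, 205 and 158 bases before its start. Cry1 had an E-box 60 bases and an inverted E-prime box 79 bases before its start, and Cry2 an inverted E-prime box 166 bases before it. Over all 32851 promoter windows of 300 bases, the E-box was found in 7.15%, the E-prime box in 4.68%, the D-box in 0.938%, the ROR element in 16.3% and the CRE in 1.79%. A window with 2 or more D-boxes, as in Per3, occurred 7 times, which is 0.0213% of all windows. Per2 has no entry in the table of promoters. A match of letters is a description of the sequence, and binding was not measured.

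Signals are linear intensities, scaled by the authors so that array means agree. A floor of 34.6 (the 25th percentile of the whole table) was set under them before log2 transformation, and among the main probe sets of these genes 1 value lay under it, Per2 on D17 replicate 1 (29.5). Keratins and collagens of skin (Krt5, Krt14, Col1a1, Col3a1) were at 3871.2 or more on every array. Correlations of whole arrays within a time point ran from 0.943, for the D5 pair, to 0.980. The labelled sexes were borne out by a Y-linked transcript, Eif2s3y (at most 45.2 in females and at least 1524.8 in males). Different probe sets bind with different strength, so levels below are compared between samples and never between genes. In whole skin, fewer cells of a type and less RNA per cell cannot be told apart.

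**Figure D1:**
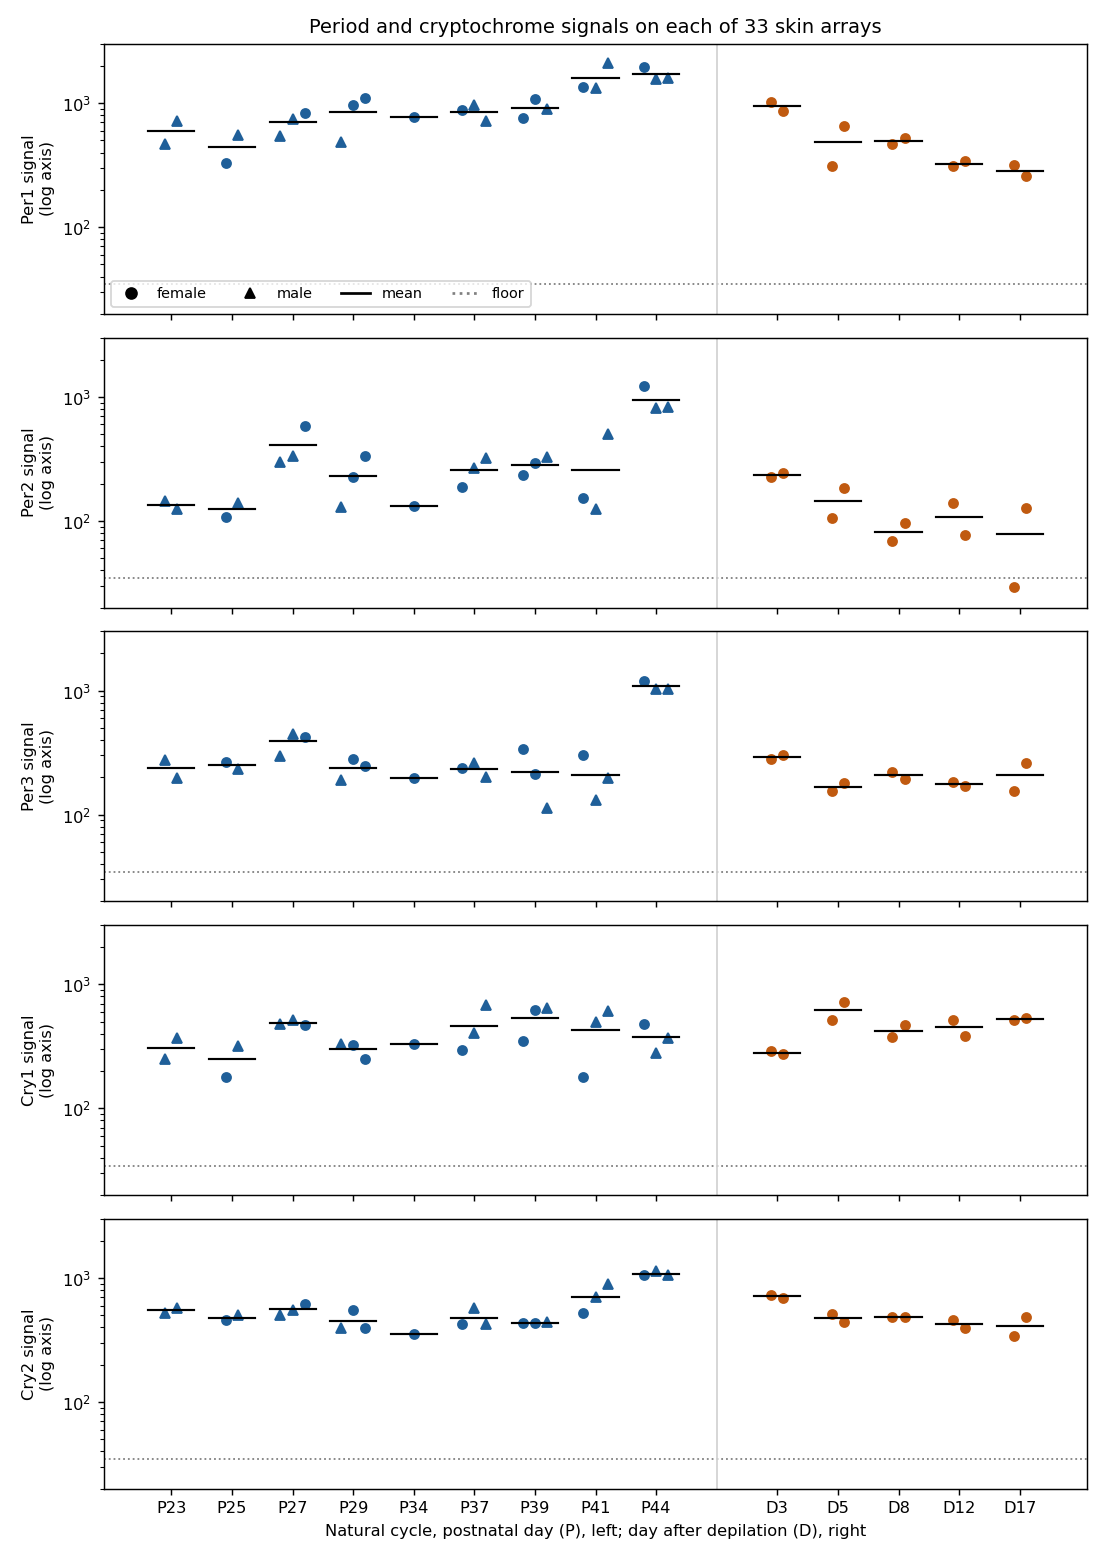
Signal (logarithmic axis) of the main probe set of each gene on each of 33 arrays, by postnatal day of the natural cycle (blue, left) and day after depilation (orange, right). Circles are females, triangles males, black lines the mean of a time point and the dotted line the floor of 34.6. Per2 and Per3 stand apart at P44, Per1 is high from P41, and Cry1 spreads widely within P37, P39 and P41.

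Per1, a Period gene that responds fast to hormones and other signals, had its highest mean at P44 and its lowest at D17. In early anagen its signals were 469.9 and 719.8 at P23 and 328 and 554.9 at P25. At P27 they were 541, 743.1 and 833.5, and at P29 489.5, 965.7 and 1097.4. The P29 range covered that of P27, and the P34 array (770.9) lay inside both. At P37 they were 880.1, 963.4 and 719.3, and at P39 756.9, 1072.6 and 891.6. They reached 1360.8, 1322.7 and 2097.8 at P41 and 1959, 1559.6 and 1597.2 at P44. All 6 arrays of P41 and P44 lay above every other array of the series, and both time points overlapped.

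Per1 rose from early to mid catagen by 0.84 ± 0.18 on the log2 scale (± is the standard error, adjusted p = 0.00728 by limma's moderated test with Benjamini-Hochberg adjustment over 26988 probe sets), from 880.6 ± 130.5 (SD, n = 6) to 1594 ± 437 (n = 3). The further difference between mid catagen and telogen was 0.12 ± 0.22 (adjusted p = 0.767, 95% interval -0.40 to 0.64). Early anagen was 3.41-fold below telogen (518.2 ± 163.8, n = 4, against 1705 ± 220.5, n = 3), a log2 difference of -1.77 ± 0.26 (adjusted p = 0.00387). Telogen exceeded late anagen by 1.08 ± 0.31 (adjusted p = 0.0294), a call that was lost on leaving out P44 replicate 1, 2 or 3 (adjusted p = 0.0796, 0.0584 and 0.0657) and under 3 of 10 other settings (up to 0.0989). The catagen step and the low level in early anagen held without each array in turn, with adjusted p at most 0.0285 and 0.0171.

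Per2, the Period protein that anchors the repressor complex, was low in early anagen and highest at P44. Its signals were 145.4 and 124 at P23, 107.7 and 140.7 at P25, and 301.2, 332.8 and 583.4 at P27. They were 128.9, 225.6 and 332.6 at P29, and 132.9 on the P34 array. At P37 they were 188.8, 266.4 and 321.2, and at P39 233.5, 291.2 and 330.2. The P41 mice differed widely, with 154.2, 125 and 499.7, and the P44 mice stood apart with 1214.9, 816.9 and 826. No array of another time point came above 583.4.

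Early anagen was 7.28-fold below telogen for Per2 (129.4 ± 17.2, n = 4, against 952.6 ± 227.2, n = 3), a log2 difference of -2.86 ± 0.19 (limma, adjusted p = 3.16e-04). Mid anagen exceeded early anagen by 1.59 ± 0.24 (adjusted p = 0.00789), with no overlap, and telogen exceeded late anagen by 2.14 ± 0.36 (adjusted p = 0.0037). These calls held without each array in turn (adjusted p at most 0.0299). Against mid catagen the telogen value was 2.14 ± 0.53 higher with no overlap but did not pass the test (adjusted p = 0.0695). Without P41 replicate 3, the mouse with 499.7, this difference was 2.75 (adjusted p = 0.0143) and Per2 in mid catagen was 0.94 on the log2 scale below early catagen (-0.94, adjusted p = 0.0194). With that mouse the latter difference was -0.33 ± 0.39 (adjusted p = 0.54).

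Per3, the Period member that is largely dispensable for rhythm in mice, was high at P44 and lower at every other time point. Its signals were 275.7 and 196.1 at P23, 264.2 and 234.8 at P25, and 299.2, 449.6 and 421 at P27. At P29 they were 189.4, 281.8 and 248.6, at P37 238.5, 260.5 and 201.2, and at P39 338.8, 212.8 and 113.9. The P41 mice had 302, 130.9 and 196.1, and the P44 mice 1194.9, 1037.5 and 1030.1. No array of another natural time point came above the 449.6 of P27.

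Per3 rose from mid catagen to telogen by 2.46 ± 0.30 on the log2 scale (209.7 ± 86.3 against 1088 ± 93.1, n = 3 each, limma, adjusted p = 0.00928), which is 5.48-fold. It was 4.51-fold lower in early anagen than in telogen (-2.17 ± 0.15, adjusted p = 3.59e-04), and 4.58-fold higher in telogen than in late anagen (2.20 ± 0.18, adjusted p = 3.00e-04). All of these held without each array in turn (adjusted p at most 0.0472). A smaller rise from early to mid anagen of 0.67 ± 0.19 was close to the threshold (adjusted p = 0.0441). It was lost without P23 replicate 1 or 2, P25 replicate 1 or 2, or P27 replicate 2 or 3 (adjusted p 0.0434 to 0.154 over the 7 arrays left out), and under 9 of 11 other settings. Among these were quantile normalization (0.066), median centring (0.053) and the replicate block (0.13). The joint fit of all 33 arrays lost it as well, both without sex (0.0842) and with sex as a covariate (0.0516). From early to mid catagen Per3 differed by -0.13 ± 0.34 (adjusted p = 0.793).

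Cry1, the stronger repressor of the cryptochrome pair and a late gene of the daily cycle, showed no telogen peak. Its signals were 250.5 and 366.9 at P23, 177.6 and 321 at P25, and 478.8, 511.9 and 474.5 at P27. They were 330.4, 324.3 and 250.1 at P29 and 329.7 at P34. In catagen mice of the same day were far apart, with 293.4, 404 and 680 at P37, 347.4, 626.4 and 639.9 at P39, and 180.7, 501.4 and 607.4 at P41. The P44 arrays had 475.1, 278.2 and 369.9, inside the range of the early catagen arrays except for the lowest.

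Cry1 rose from early to mid anagen by 0.86 ± 0.24 (279 ± 82.8, n = 4, to 488.4 ± 20.5, n = 3, limma, adjusted p = 0.0448). The call was lost without P23 replicate 1, P25 replicate 2 or any of the P27 replicates 1, 2 and 3 (adjusted p 0.0357 to 0.138 over the 7 arrays), and under 6 of 11 other settings (up to 0.113). Telogen and late anagen differed by 0.29 ± 0.23 (adjusted p = 0.339, 95% interval -0.26 to 0.83), and telogen and early anagen by 0.44 on the log2 scale (early minus telogen -0.44 ± 0.29, adjusted p = 0.288, interval -1.12 to 0.23). The P29 and P27 arrays did not overlap (-0.71 ± 0.15), yet that difference had an adjusted p of 0.156.

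Cry2, the other cryptochrome repressor, was high at P44. Its signals were 527.8 and 578.1 at P23, 456.3 and 505.8 at P25, and 502.9, 548.5 and 623.6 at P27. At P29 they were 396.7, 549.5 and 396.5, at P37 425.7, 576.9 and 429.5, and at P39 431.6, 435.7 and 445.4. The P34 array had the lowest signal of the natural cycle, 356.2. They were 519.1, 707.7 and 897.5 at P41 and 1051.4, 1130.5 and 1063.2 at P44, and each P44 array lay above every other array of the series.

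Cry2 in early anagen was 2.1-fold below telogen (517 ± 50.5 against 1082 ± 42.7), a log2 difference of -1.07 ± 0.12 (limma, adjusted p = 0.00132). Telogen exceeded late anagen by 1.29 ± 0.17 (adjusted p = 0.00134). Both held without each array in turn (adjusted p at most 0.00802). The rise from early to mid catagen was 0.60 ± 0.17 (adjusted p = 0.0238), with overlapping arrays, and was lost without P41 replicate 2 (adjusted p = 0.0809) or replicate 3 (0.102). The further step to telogen, 0.65 ± 0.21, had no overlap and an adjusted p of 0.125.

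Over the 6 phases of the natural cycle an F test called Per1, Per2, Per3 and Cry2 and not Cry1 (adjusted p = 0.142), so 4 of 5 members beside 72.6% of all probe sets tested. With sex as a covariate Cry1 passed as well (adjusted p = 0.036). Against telogen, early anagen had 4 members lower, beside 26.8% of probe sets called in either direction. Mid against early anagen had 3 members higher (background 19.7%). Late against mid anagen called 0 members and 0% of all probe sets, although 2 members (Per3 and Cry1) had an unadjusted p under 0.05, beside 5323 of all probe sets, and a one-way analysis of variance at the unadjusted threshold of the study's methods, run here on the floored log2 signals and not on the study's transformed values, passed 1 member (Cry1). Early catagen against late anagen likewise called 0 members and 0% of all, with 1 member (Cry1) at an unadjusted p under 0.05, beside 3596 of all probe sets, and 0 at the threshold of the analysis of variance. Mid against early catagen had 2 members higher (background 35.3%), telogen against mid catagen 1 member higher (background 5.88%), and telogen against late anagen 4 members higher (background 44.6%). For the F test and for the step into mid catagen the share of members called lay near that background, so these counts say little about the members as a set.

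**Figure D2:**
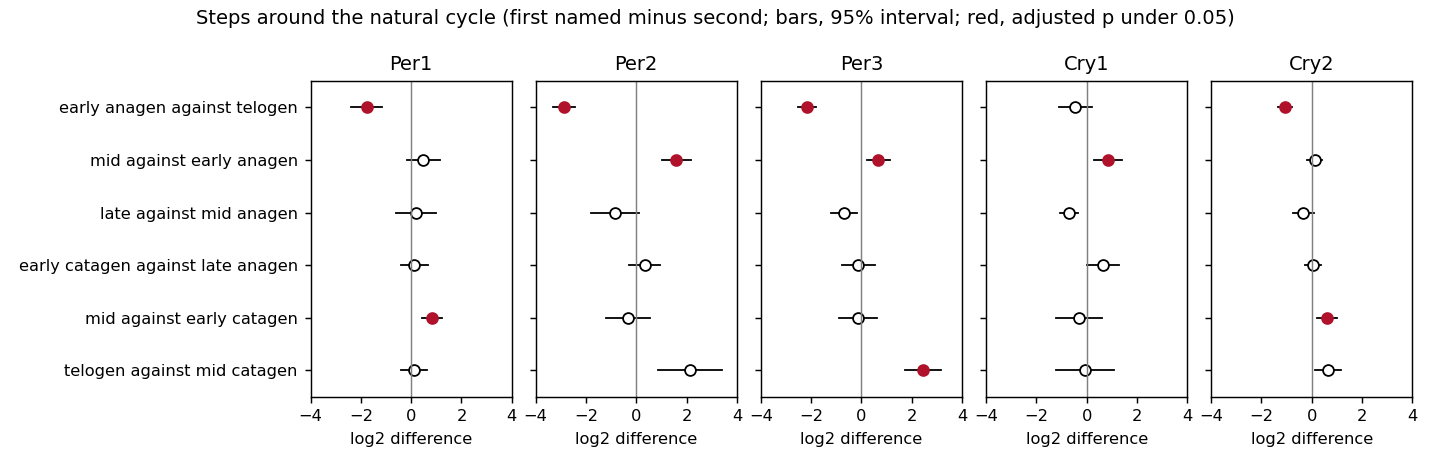
Log2 difference (horizontal axis) of each gene at 6 steps around the natural cycle, the first named phase minus the second, with 95% intervals from limma. Filled red points have an adjusted p under 0.05. Per1 and Cry2 pass at the step into mid catagen, Per3 at the step from there into telogen, and 4 genes lie below telogen in early anagen.

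The rest of the circuit was read from 16 other clock genes, of which 13 were tested. In early anagen 8 of them were lower than in telogen, 2 were higher and 3 did not pass, with a median log2 difference of -0.98 beside -0.05 over all probe sets. Those lower included Dbp (-2.69), Hlf (-1.86), Ciart (-1.60), an E-box driven repressor, Tef (-1.46), Nr1d1 (-1.22) and Nr1d2 (-1.05). The 2 higher were the activators Arntl (0.63) and Clock (0.51), which lie on the other side of the loop from the Period genes. Over all probe sets 26.8% were called in that comparison. From mid catagen to telogen 6 rose (Dbp 3.98, Hlf 1.86, Ciart 1.78, Tef 1.55, Nr1d2 1.54 and Bhlhe40 1.25) and 2 fell, Arntl (-1.29) and Nfil3 (-2.43), a repressor at D-boxes. The share of all probe sets called there was 5.88%. From early to mid catagen 5 of the 13 rose, Npas2 (1.81), Arntl2 (1.17), Rora (0.92), Clock (0.81) and Arntl (0.51), beside the 35.3% of all probe sets called at this step. Per1 and Cry2 rose at that same step, at which Dbp differed by -0.50 and did not pass the test.

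Genes that control the stability of PER and CRY proteins (9 listed, 7 tested) had 1 lower in early anagen than in telogen and 6 that did not pass. That gene was Usp2 (-1.32), a deubiquitinase that is itself rhythmic. Over all probe sets 26.8% were called in that comparison, so the count of turnover genes did not exceed the background. Csnk1e, a kinase that marks PER proteins for destruction, rose from early to mid anagen (1.55) and fell from early to mid catagen (-1.29), while Csnk1d, its close relative, fell in the latter step by 0.32 (-0.32). Of the 7 tested, 1 was higher and 1 lower from early to mid anagen, beside 19.7% of all probe sets called. From early to mid catagen 2 were lower and 0 higher, beside 35.3%, so neither count stands out from the background.

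Glucocorticoid-induced genes were set beside Per1 and Per2. Of 11 such genes 9 rose from early to mid catagen (median 1.17, beside -0.01 over all probe sets), among them Pdk4 (2.55), Zbtb16 (1.61), Fkbp5 (1.48) and Tsc22d3 (1.29), and 0 fell. Into telogen 0 rose further and 1 fell, Angptl4 (-1.58). In early anagen 8 were lower than in telogen and 0 higher. Over all probe sets, 35.3% were called from early to mid catagen, 5.88% from there into telogen and 26.8% between early anagen and telogen. The part of hormone level in the Per1 and Per2 values was not tested.

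Tissue makeup also moved. The 9 makeup markers were Flg and Lor (cornified cells), Krt1 and Krt10 (suprabasal cells of the epidermis), Vim and S100a4 (connective tissue), and Des, Mef2a and Mef2c (muscle). Their summed signal was 42133 to 44093 in late anagen, 97535 to 104052 at P41 and 133411 to 158048 at P44. On every array 0 of the 9 lay under the floor. From early to mid catagen 5 of 9 rose, beside 35.3% of all probe sets called in either direction. From late anagen to telogen 8 of 9 rose, beside 44.6%. In early anagen the sum was 96343 to 109124. Mki67, a transcript of dividing cells, was 3.27 log2 units higher in early anagen than in telogen and fell by 1.97 on the log2 scale from early to mid catagen. The part of tissue makeup in the values of the members was not tested.

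After depilation Per1, Per2, Per3 and Cry2 were highest at D3 of the sampled days. Per1 had 1013 and 872.2 at D3, 309.6 and 657.3 at D5, 466.8 and 521.7 at D8, 308.5 and 342.6 at D12, and 314.6 and 258 at D17. Per2 had 224 and 244.8 at D3, 106.5 and 184.6 at D5, 68.3 and 95.5 at D8, 138.2 and 77.1 at D12, and 29.5 and 127.8 at D17. For both genes no array of a later day reached the D3 pair.

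Per3 had 282.9 and 302.4 at D3, 154.7 and 180.3 at D5, 222.2 and 193.7 at D8, 182.2 and 171.4 at D12, and 155 and 263.2 at D17. Cry2 had 732.1 and 692.2 at D3, 518.1 and 440.7 at D5, 488.8 and 485.4 at D8, 459.3 and 397.5 at D12, and 339.6 and 488 at D17. For Per3 and Cry2 too, no array of a later day reached the D3 pair. Cry1 ran the other way, with 290.9 and 273 at D3, its lowest pair, then 519.1 and 720.7 at D5, 373.3 and 467.9 at D8, 518.2 and 384.1 at D12, and 514.1 and 531 at D17. These are values of the main probe sets. How many of all probe sets set the D3 pair apart in this way was not counted.

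Across the 5 days the F test called 0 of 5 members, beside 10.2% of all probe sets. Per1 (adjusted p = 0.0557), Cry1 (0.0753) and Cry2 (0.123) each had an unadjusted p under 0.05, as did 8244 of all probe sets. From D3 to D5, Cry1 rose 2.17-fold (1.12 ± 0.23, adjusted p = 0.0491), the 1 member called beside 2.66% of all probe sets, and the call was lost without D3 replicate 1, D3 replicate 2 or D5 replicate 2 (adjusted p 0.0459 to 0.148 over the 4 arrays) and under 7 of 8 other settings (0.0515 to 0.125). Per1 at that step differed by -1.06 ± 0.33 (adjusted p = 0.133), and without D5 replicate 2, the higher array of its pair, it passed (adjusted p = 0.0283). Per3 at the same step differed by -0.81 ± 0.25 (adjusted p = 0.133), without overlap. The step from D5 to D8 and D12 called 0 members (background 0.545%), with 1 (Cry1) at an unadjusted p under 0.05, beside 4796 of all probe sets. The step to D17 called 0 members and 0% of all, with 0 members at an unadjusted p under 0.05, beside 948 of all probe sets.

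The same named phase was then compared between the cycles in a fit of all 33 arrays. In early anagen 2 members were higher after depilation (background 44.6%), Per1 (942.6 ± 99.6, n = 2, against 518.2 ± 163.8, n = 4, a difference of 0.92 ± 0.31, limma, adjusted p = 0.021) and Cry2 (0.47 ± 0.19, adjusted p = 0.0448). The share of members called lay near that background, so the count says little about the members as a set. The calls of Per1 and Cry2 were both fragile. Per1 lost its call without P23 replicate 1, P25 replicate 1, D3 replicate 1 or D3 replicate 2 (adjusted p up to 0.15) and with sex as a covariate (0.80, adjusted p = 0.0639), and Cry2 without any of the 6 arrays of P23, P25 and D3 (0.0517 to 0.202). Of the 11 glucocorticoid-induced genes 10 were higher in D3 skin, with a median of 1.36 beside -0.09 over all probe sets.

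In mid anagen 2 members were lower after depilation (background 23.6%). Per3 was 2.3-fold lower (167.5 ± 18.1, n = 2, against 389.9 ± 79.9, n = 3; -1.20 ± 0.34, adjusted p = 0.014), and lost its call without P27 replicate 2 or D5 replicate 1 (adjusted p up to 0.132). Per2 was 2.77-fold lower (-1.47 ± 0.53, adjusted p = 0.0462), and lost its call without P27 replicate 1, 2 or 3 or D5 replicate 1 (up to 0.349) and under 6 of 7 other settings, sex as a covariate among them (0.0633). Per1 differed by -0.62 ± 0.33 and passed without D5 replicate 2 (adjusted p = 0.032).

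In late anagen 2 members were lower after depilation (background 26.5%), Per1 (409.9 ± 100.9, n = 4, against 850.9 ± 319.8, n = 3, a 2.01-fold difference with a standard error of 0.28 on the log2 scale, adjusted p = 0.0098) and Per2 (-1.22 ± 0.44, adjusted p = 0.0433), both with overlapping arrays. Per1 lost its call without P29 replicate 2 or 3 (adjusted p up to 0.0755), and Per2 without P29 replicate 2 or 3, D8 replicate 1 or 2, or D12 replicate 2 (up to 0.208) and under 6 of 8 other settings (up to 0.148).

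In early catagen 2 members were lower after depilation (background 15.3%). Per1 was 3.06-fold lower at D17 than at P37 and P39 (286.3 ± 40, n = 2, against 880.6 ± 130.5, n = 6; -1.62 ± 0.30, adjusted p = 7.33e-04), without overlap, and held without each array in turn (adjusted p at most 0.0283). Of the 11 glucocorticoid-induced genes 1 was lower at this phase (Tsc22d3, -1.79), 1 higher (Dusp1, 1.27) and 9 did not pass. In mid anagen 2 of them were lower and 0 higher after depilation, beside 23.6% of all probe sets called. In late anagen 3 were lower and 1 higher, beside 26.5%. Per2 was -2.01 ± 0.47 (adjusted p = 0.00565). Without D17 replicate 1, the array under the floor, it was -1.06 (adjusted p = 0.297). Cry1 and Cry2 did not differ past the test at this phase (0.14 ± 0.36 and -0.16 ± 0.18).

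The change from early to mid anagen was tested between the cycles by an interaction term, natural step minus depilation step. It was positive for 3 members (background 11.3%), Per1 (1.54 ± 0.46, adjusted p = 0.0316), Per2 (2.33 ± 0.72, adjusted p = 0.0401) and Per3 (1.48 ± 0.47, adjusted p = 0.0449). The natural step was 0.48, 1.59 and 0.67 for these genes and the depilation step -1.06, -0.74 and -0.81. Single arrays decided these calls. Per1 lost its call without 7 of the 11 arrays (P23 replicate 1, P25 replicate 1, P27 replicates 2 and 3, D3 replicates 1 and 2 and D5 replicate 1, adjusted p up to 0.198), Per2 without 8 (the same 7 and P23 replicate 2, up to 0.153) and Per3 without 9 (P23 replicate 2, P25 replicates 1 and 2, P27 replicates 2 and 3, and all 4 arrays of D3 and D5, up to 0.127). Of the glucocorticoid-induced genes 6 of 11 had a positive interaction and 0 a negative. The interaction from mid to late anagen called 0 members (background 0.0963%), and that from late anagen to early catagen 0 members and 0% of all. In neither did a member have an unadjusted p under 0.05, beside 2903 and 1179 of all probe sets.

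**Figure D3:**
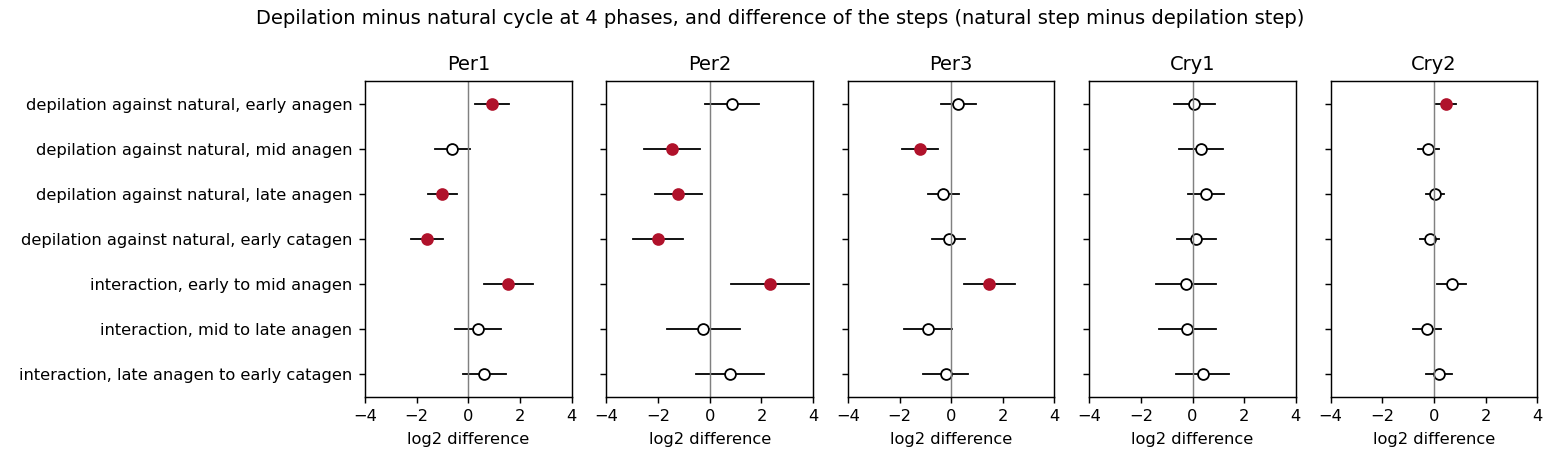
Log2 difference (horizontal axis, with 95% intervals) between the depilation and the natural cycle at 4 named phases, and below them the interaction terms, natural step minus depilation step. Filled red points have an adjusted p under 0.05. Per1 crosses from above 0 in early anagen to -1.62 in early catagen, and Cry1 includes 0 throughout.

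Mice of the same time point differed in Per2, Cry1, Per3 and Per1 more than in most transcripts, and in Cry2 less. The pooled standard deviation within a time point (32 arrays, 19 residual degrees of freedom) was 0.61 on the log2 scale for Per2, above that of 95.1% of kept probe sets, 0.47 for Cry1 (85%), 0.39 for Per3 (74.4%), 0.38 for Per1 (72%) and 0.21 for Cry2 (34.8%). The median over all kept probe sets was 0.27. For Cry1 the spread between mice of a day exceeded the spread between time points (0.39).

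The differences between mice of a day did not fall the same way for all members. After subtraction of each time point's mean, Per3 moved with Dbp (Pearson r = 0.83, Spearman rho = 0.76, n = 32 arrays of 13 time points, and r = 0.74 without the 2 arrays farthest out), Tef (0.80), Nr1d2 (0.80) and Nr1d1 (0.71). It had no relation with Tsc22d3 (r = -0.02). Per1 was the reverse, with r = 0.64 to Tsc22d3 and -0.05 to Dbp, but its r to Fkbp5 was 0.42. Among the other members and the chosen reference genes, Per2 was nearest Fkbp5 (0.64) and Tsc22d3 (0.59), with Cry2 next (0.55). Over the 22 natural arrays r of Per2 was 0.82 for each of Fkbp5 and Tsc22d3, and over the 10 depilation arrays it was -0.20 and -0.29. Cry1 too had a positive r to Fkbp5 (0.48) and Tsc22d3 (0.33). Cry1 ran against Nr1d1 (r = -0.68, rho = -0.43) and Dbp (-0.63). Over the depilation arrays alone r was 0.61 and 0.43. Each depilation day had 2 arrays, so the deviations of a day mirror each other (Per2 at D17, -0.943 and 0.943) and count as a single value. The depilation values of r therefore cannot decide whether the cycles differ. These are descriptions. The arrays share time points and the mice of a day share a mean that was removed.

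Single mice illustrate these values. At P41 replicate 1 had Dbp at 1733.8, Nr1d1 at 950.5, Per3 at 302 and Cry1 at 180.7. Replicates 2 and 3 had Dbp at 194.7 and 231.7, Nr1d1 at 478.5 and 216.6, Per3 at 130.9 and 196.1, and Cry1 at 501.4 and 607.4. The mouse with high PAR bZIP and REV-ERB transcripts was thus the mouse with high Per3 and low Cry1. At P39, Dbp was 1231.5, 832.1 and 194.1 beside Per3 at 338.8, 212.8 and 113.9 and Cry1 at 347.4, 626.4 and 639.9. On a second axis, P41 replicate 3 had Tsc22d3 at 12999.5 against 5731.4 and 5957.8 in its companions, and held the highest Per1 (2097.8) and Per2 (499.7) of that day. At P44 the mice were alike in Dbp (6521.8 to 7013.1), and Per1 and Per2 were highest in the mouse with the highest Tsc22d3 (8513.2). Per1 and Per2 were also highest in the mouse with the highest Tsc22d3 at P27 and P29. On days with 2 arrays it held for both genes at P25 and D5. It failed for Per2 at P23, D8, D12 and D17, and for Per1 at D3 and D8. For Per1 it also failed on both early catagen days. At P37 replicate 3 had the highest Tsc22d3 (4947.2) and Per2 (321.2) of its day but the lowest Per1 (719.3). At P39 replicate 3 had the highest Tsc22d3 (4044.5) and Per2 (330.2), while Per1 was highest in replicate 2 (1072.6).

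**Figure D4:**
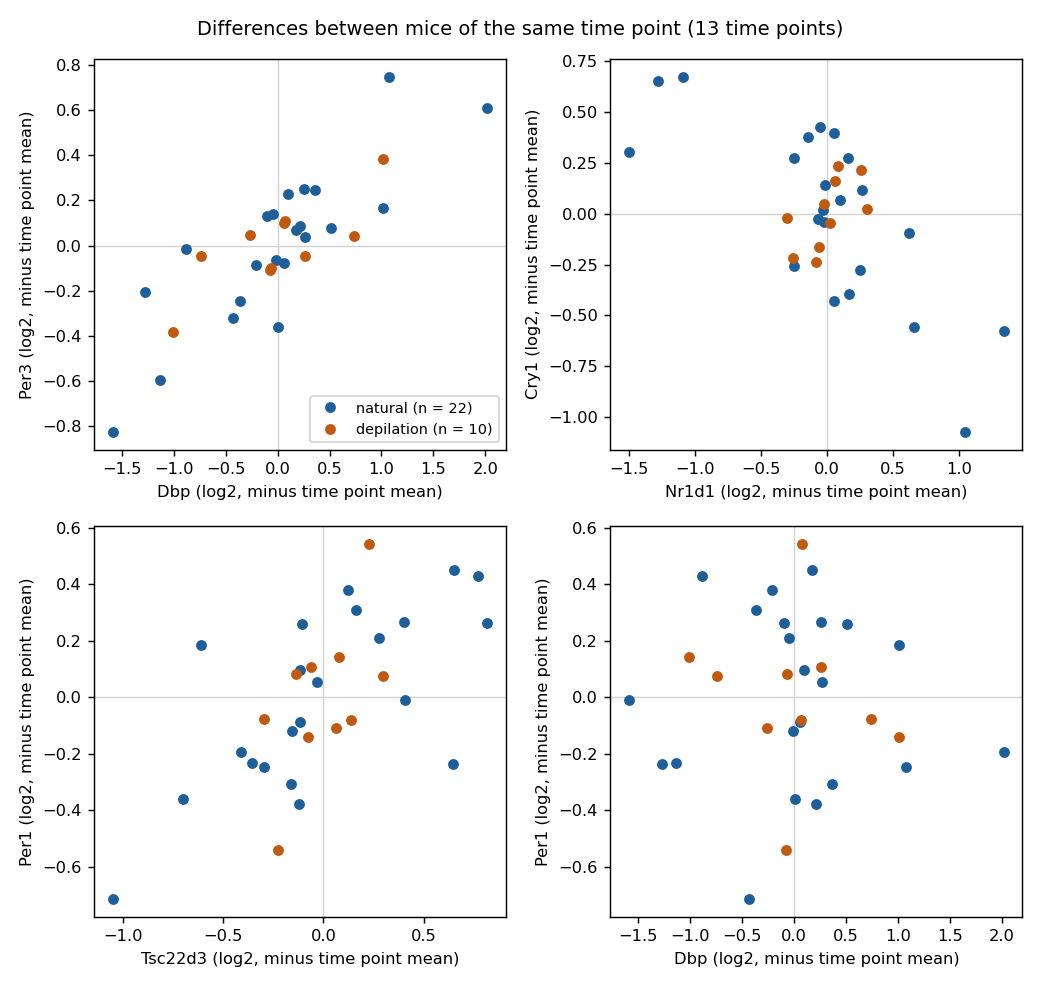
Each point is 1 array, placed by its log2 signal minus the mean of its time point for a reference gene (horizontal) and a member (vertical), for 22 natural (blue) and 10 depilation (orange) arrays. Per3 rises with Dbp (r = 0.83) and Cry1 runs against Nr1d1 in the natural arrays (r = -0.75), while Per1 rises with Tsc22d3 (r = 0.64) and not with Dbp (r = -0.05).

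Sex moved with this pattern at P41, where the mouse with high Per3 was a female and the others males. At the 7 time points with both sexes, Per3 was higher in females at all 7 (median log2 difference, female minus male, 0.21, range 0.06 to 1.24), and Cry1 was higher in males at 6 (median -0.46). Per1 was higher in females at 5 of 7, Per2 at 3 and Cry2 at 2. These are values over 1 or 2 mice per sex. In the joint fit with sex as a covariate the members lower in early anagen than in telogen and higher in telogen than in late anagen numbered 4 each, as in the main tests.

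The genes most like each member were ranked by Pearson correlation over all 33 arrays among 12867 genes. For Per3 they were clock genes, Tef (0.928), Dbp (0.906) and Nr1d2 (0.828). For Per1 they were Arrdc2 (0.880), Depp1 (0.879) and Tsc22d3 (0.867), the last of which is induced by glucocorticoid hormone. For Per2 they were Tspan4 (0.812), Cys1 (0.789) and Per1 (0.753), and for Cry2 Fnip1 (0.888), Adamtsl4 (0.876) and Dst (0.869). Cry1 had no close companion, and its nearest, Bloc1s4, reached 0.592. The arrays share phase, cycle and array chemistry, so these values describe likeness over these samples.

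The other probe sets of Per2 and Per3 were dimmer. Of the 2 other Per2 probe sets and the 4 other Per3 probe sets that passed the filter, all 6 were lower in early anagen than in telogen, by 1.56 to 1.84 for Per2 and 1.82 to 2.13 for Per3 on the log2 scale (limma, adjusted p at most 0.00435). From mid catagen to telogen Per3 rose with 3 of the 4 (2.06 to 2.45), and the other gave 2.46 (adjusted p = 0.0641). Telogen exceeded late anagen past the test with 1 of 2 for Per2 (the other had an adjusted p of 0.0986) and 3 of 4 for Per3 (the other 0.0712). The smaller effects were less steady. D5 and D3 arrays overlapped with the 2 other Per2 probe sets (log2 difference -0.82 and 0.004) and with 1 of the 4 for Per3 (-0.07). They did not overlap with the other 3 for Per3. The rise from early to mid anagen passed with 1 of 2 for Per2 and 1 of 4 for Per3, the lower Per2 after depilation with 0 of 2 in mid anagen, late anagen and early catagen, and the interaction from early to mid anagen with 0 of 2 for Per2 and 0 of 4 for Per3. In late anagen, by contrast, 3 of the 4 other Per3 probe sets were lower after depilation (-0.97 to -1.37) where the main one was not called (-0.31). The sixth Per3 probe set lay under the floor on 11 arrays and was not kept. Per1, Cry1 and Cry2 have a single probe set each.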

How the data were processed

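RNA of 33 skin samples had been hybridized to the Mouse Genome 430 2.0 array of Affymetrix. The deposited values were linear signal intensities that the authors computed with MAS 5 and brought to a common mean (the median signal was 111.2 to 142.5 per array), and they were used as the authors made them. The number of arrays limits the precision of every value. The p-values set a difference against the spread between the mice of a group. In the natural steps and the natural F test that spread includes any difference between days pooled into a phase (P23 with P25, P37 with P39). Every column of the table was mapped to a sample by its label.

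Signals under 34.6 were raised to that floor (25th percentile of the table) before taking log2. Probe sets above the array median on at least 3 arrays (26988) were fitted in R 4.3.3 by limma 3.58.1 (linear models and moderated statistics, table reading with the data.table package, version 1.17.8), with Benjamini-Hochberg adjustment over all of them and a threshold of 0.05. Natural steps were fitted on the arrays of both phases alone, as in the study's methods, depilation steps on the 10 depilation arrays, and comparisons between cycles on all 33. There were 19 comparisons. Scripts were tested on simulated data. Named genes were the members, the gene lists and the 3 genes most like each member. The members and the lists (other clock genes, PER and CRY turnover, glucocorticoid-induced genes, tissue makeup, skin and dividing cells) were chosen with earlier results of these data known. Promoter sequences came from RefSeq (GRCm38.p6), with entries for 4 of the 5 genes. Figures were drawn with matplotlib 3.10.9. Alternatives were another floor (10th percentile) or none, no filter, other scalings, joint fits, sex, a replicate block, other time points, each array left out, other probe sets, and the one-way analysis of variance of the study's methods, here on the floored log2 signals where the study used values transformed by a noise model.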

Additional observations from a re-analysis of the deposited data

Results flagged for a closer look

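The change of 3 members from early to mid anagen differed between the natural and the depilation cycle by the interaction term of a fit of all 33 arrays (limma). The difference of the steps, natural minus depilation on the log2 scale, was 1.54 for Per1, 2.33 for Per2 and 1.48 for Per3. All 3 calls were lost when any of several single arrays was left out.

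One signal stood apart from the others of its phase. Cry2 at P37 replicate 2 was 576.9, beside 425.7 to 445.4 on the other 5 early catagen arrays, and its gap to the nearest array took 0.851 of the range of the phase on the log2 scale. Of 15 sets of 4 to 6 arrays examined in this way for the 5 genes this was the only one past the limit. Each set passes that limit by chance about 1 time in 20, a rate near the 1 of 15 seen here.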

How the results depend on the processing

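Members called, of 5, kept their number within 1.5 times under every alternative for early anagen against telogen (4 throughout), telogen against late anagen (3 or 4), late against mid anagen, early catagen against late anagen, the D8 and D12 and the D17 steps and the other interactions (0), the natural F test (4 or 5), mid against early catagen except for single arrays, and early catagen between the cycles except for single arrays. No call turned its direction under any alternative or probe set. For mid against early anagen (3), without the filter, in the joint fit of all 33 arrays, with P23 alone as early anagen and with the methods' one-way analysis of variance after Benjamini-Hochberg adjustment 1 member was called, and with P25 alone 0. For telogen against mid catagen (1), the joint fit called 3, with or without sex, and the methods' analysis of variance 0. For D5 against D3 (1), the floor at the 10th percentile, no filter, quantile normalization, median centring, both joint fits and the replicate block called 0. For the depilation F test (0), median centring called 1 (Per1) and both joint fits 2 (Per1 and Cry2). Between the cycles, early anagen (2) had 1 call without the filter or with sex and 0 with P23 alone. Mid anagen (2) had 1 with the lower floor, no filter, quantile normalization, median centring, sex or the replicate block. Late anagen (2) had 1 with the lower floor, no filter, quantile normalization, median centring, the replicate block or P34 added. The interaction from early to mid anagen (3) had 0 without the filter or with P23 alone and 1 with P25 alone. With quantile normalization, median centring, the joint fit with sex or the replicate block the Per3 call for mid against early anagen was lost (adjusted p 0.0516 to 0.13) while 2 members were called. Without the filter more probe sets share the adjustment. For the other changes the cause was not tested. At the unadjusted threshold of the methods' analysis of variance (p under 0.01) the members passing were 4 for early anagen against telogen, 3 for telogen against late anagen and 1 each for mid against early anagen, late against mid anagen, mid against early catagen and telogen against mid catagen.

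With each array left out in turn, the number called ran from 1 to 2 for mid against early anagen, 1 to 2 for mid against early catagen, 1 to 2 for telogen against mid catagen, 3 to 4 for telogen against late anagen, 0 to 1 for D5 against D3, 0 to 1 for early anagen, 0 to 3 for mid anagen, 0 to 2 for late anagen and 1 to 2 for early catagen between the cycles, 0 to 3 for the interaction from early to mid anagen, 4 to 5 for the natural F test and 0 to 1 for the depilation F test. Where a time point was left with 1 array, that array was assumed to vary like the others.

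The replicate numbers name separate mice and do not pair them. Deviations of same-numbered mice between natural time points correlated by -0.20 to 0.28 (median 0.03, 71 pairs), and 14 exceeded 0.1. With the replicate number as a block, 4 members were called for early anagen against telogen and 3 for telogen against late anagen, where Per1 was lost (adjusted p = 0.0561). Low signal limits Per2 at D17, where 1 of 2 arrays lay under the floor.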

Other observations

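The single P34 array, which enters no main comparison, had Per1 at 770.9, Per2 at 132.9, Per3 at 197.8, Cry1 at 329.7 and Cry2 at 356.2. Its Per2 lay below 9 of the 9 arrays of P37, P39 and P27 but inside the ranges of P23, P25, P29 and P41. Its Cry2 lay below every other array of the natural cycle.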
